A study of Rattus norvegicus with 21 samples.

Results

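The subject is the 96 array probes for 91 rat genes of voltage-gated and potassium channel subunits, out of 5376 table rows that name 4153 genes. They were chosen by gene symbol in the platform annotation: Scn followed by a digit, Cacn, Kcn or Hcn. There were 10 probes for sodium channel subunits, 17 for calcium channel subunits, 66 for potassium channel subunits and 3 for Hcn channels. The study, whose title names anti-inflammatory compounds and spinal cord injury (SCI), hybridised rat cord RNA to 21 2-colour arrays, with 3 arrays in each of 7 groups. The Uninjured group was freshly dissected cord, and the Injured 4 hr group was PBS-treated cultures of cord kept for 4 hr. The CKIN, MP and acetaminophen (Acet) groups were treated 4 hr cultures, and all of these arrays carried pooled PBS-treated 4 hr cultures as the second RNA. Whether that was the same pool on all of them is not stated, and each difference between these groups assumes that it was. Indomethacin (Indo) cultures were set against cultures with ethanol (ETOH), and NS398 cultures against cultures with DMSO. CKIN and MP are not spelled out in the labels, which also carry no dose, strain, sex or age here. They do not say if the replicates came from different animals, so a p-value reflects the spread between these samples alone, which may be technical.

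Voltage-gated sodium channels carry the rising phase of the action potential through a large alpha subunit that forms the pore, with beta subunits beside it. Calcium channels couple depolarisation to transmitter release and signalling through a pore-forming alpha1 subunit with beta, alpha2-delta and gamma partners. Potassium channels return the membrane to rest: voltage-gated (Kv) channels repolarise it, inward rectifiers (Kir) and K2P channels hold the resting potential, and calcium-activated (KCa) channels follow calcium entry. Hcn channels open on hyperpolarisation and set pacemaker-like currents. In spinal cord these genes are used mainly by neurons, while Kcnj10 is the inward rectifier through which astrocytes take up potassium.

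All values are log2 of the sample's signal over that of its pool, less the array's median, so 0 is the median probe of that array. The ratio compares a gene with itself in the pool and gives no level in the tissue. The direction follows the order of the RNAs in the titles. It is likely, and no label states it. Base 2 was read from values of the treated arrays and is assumed for the Uninjured and Injured 4 hr arrays. Uncentred medians lay between -4.13 and -3.11 on the Uninjured arrays, between -2.27 and -2.13 on the Injured 4 hr arrays and between -1.63 and 0.69 on treated arrays. The 10 arrays with more than 1100 missing spots were all CKIN, all Indo, 2 MP, 1 Acet and 1 NS398 arrays. On 9 of these 10 the channel probes were missing more often than all probes with a value, with 17.7% to 42.7% of the channel probes absent. On the other 11 arrays at most 14.6% were absent. A change was called at a limma Benjamini-Hochberg adjusted p under 0.05 over all tested probes, with a probe tested if 2 or more of the 3 arrays in both groups measured it.

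The question of the first comparison is how cord cut and kept in culture for 4 hr differs from fresh cord. Among channel probes 9 fell and 1 rose in Injured 4 hr relative to Uninjured, out of 96 tested. The 9 were the sodium channel alpha subunits Scn1a and Scn2a, the Kv alpha subunits Kcnc1, Kcnd2 and Kcnh2, the Kv beta subunits Kcnab1 and Kcnab2, the astrocyte Kir channel Kcnj10, and Hcn2. The directions of Scn1a, Scn2a, Kcnd2, Kcnh2 and Kcnab1 turned in the deposited, uncentred ratios, where changes ran from 0.08 in Kcnd2 to 0.48 in Kcnh2. Scn1a also turned, to 0.48, with arrays scaled to equal spread. No calcium channel probe of 17 passed. Over all 4822 tested probes 13.5% fell and 0.809% rose, so the shares of channel probes, 9.38% lower and 1.04% higher, lay near the background. The median change of the channel probes was 0.05, against -0.04 for all probes.

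**Figure D1:**
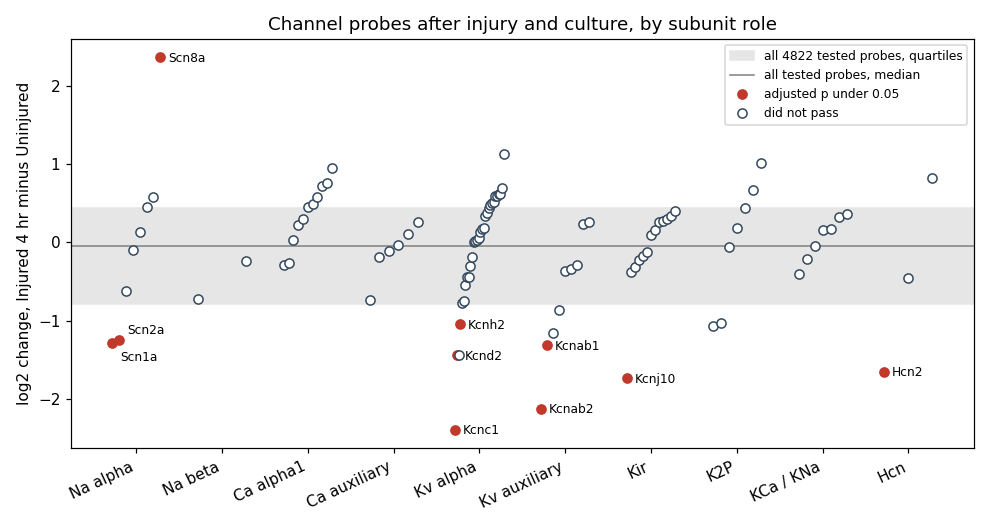
Log2 change from Uninjured to Injured 4 hr (vertical axis) of each of the 96 channel probes, grouped by subunit role; red points passed and the grey band holds the quartiles of all 4822 tested probes. The 9 probes that fell lie between -2.40 (Kcnc1) and -1.05 (Kcnh2); in the deposited ratios Scn1a, Scn2a, Kcnd2, Kcnh2 and Kcnab1 were above 0, and under equal spread Scn1a.

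Kcnc1, which encodes a fast Kv channel of rapidly firing neurons, had the largest fall. Its centred ratios were 3.74, 3.52 and 3.71 in Uninjured and 0.86, 1.14 and 1.79 in Injured 4 hr. The groups did not overlap, and the change was -2.40 ± 0.47 (SE, n = 3 and 3; limma adjusted p = 0.00172). Kcnj10 read 1.77, 2.72 and 2.55 in Uninjured and 1.47, 0.12 and 0.25 in Injured 4 hr. The first Injured 4 hr array stood near the lowest Uninjured array, and the change was -1.74 ± 0.36 (limma adjusted p = 0.00269). Hcn2, a pacemaker channel, read 3.07 and 2.24 on the 2 Uninjured arrays that measured it and 1.20, 0.72 and 1.08 in Injured 4 hr. Its change was -1.66 ± 0.41 (limma adjusted p = 0.00892). These were the 3 calls that held under every omission of 1 array that left the probe tested, 6 omissions for Kcnc1 and Kcnj10 and 4 for Hcn2. All 3 stayed below 0 under each of the 5 other scalings of the arrays, but shrank to as little as -0.46 (Kcnc1), -0.21 (Kcnj10) and -0.23 (Hcn2). Of these scalings 1 called Kcnc1, and 0 called Kcnj10 or Hcn2.

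The stretch before the annotated start of Kcnc1, Kcnj10 and Hcn2 is shown because these 3 calls held when arrays were left out, and that of Scn2a for contrast among probes that fell. Each is 250 bases from RefSeq on build GRCr8, with the GC box (GGGCGG, or CCGCCC on the other strand) in capitals.
Kcnc1 (chr1:106038997-106039246, plus strand): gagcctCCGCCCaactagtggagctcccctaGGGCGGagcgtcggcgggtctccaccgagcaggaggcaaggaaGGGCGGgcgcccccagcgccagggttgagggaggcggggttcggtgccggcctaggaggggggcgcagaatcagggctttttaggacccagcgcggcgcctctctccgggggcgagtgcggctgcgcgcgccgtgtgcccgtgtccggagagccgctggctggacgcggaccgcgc
Kcnj10 (chr13:87334260-87334509, plus strand): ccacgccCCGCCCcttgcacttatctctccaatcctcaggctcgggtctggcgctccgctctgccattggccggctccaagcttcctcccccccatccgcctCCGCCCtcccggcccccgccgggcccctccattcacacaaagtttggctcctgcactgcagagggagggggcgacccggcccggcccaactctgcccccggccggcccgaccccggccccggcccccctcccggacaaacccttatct
Hcn2 (chr7:10639458-10639707, minus strand): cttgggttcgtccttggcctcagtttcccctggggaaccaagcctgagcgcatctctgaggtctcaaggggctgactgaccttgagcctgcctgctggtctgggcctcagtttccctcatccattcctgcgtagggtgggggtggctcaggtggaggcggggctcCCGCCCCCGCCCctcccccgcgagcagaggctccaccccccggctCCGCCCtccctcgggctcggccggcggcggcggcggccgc
Scn2a (chr3:70710706-70710955, plus strand): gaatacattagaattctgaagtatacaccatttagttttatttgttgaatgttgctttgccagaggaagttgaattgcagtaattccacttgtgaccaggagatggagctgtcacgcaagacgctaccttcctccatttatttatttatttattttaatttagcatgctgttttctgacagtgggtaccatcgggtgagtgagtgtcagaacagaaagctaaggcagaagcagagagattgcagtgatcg
Kcnc1 and Hcn2 held 3 GC boxes each and Kcnj10 held 2, within windows of 74.4%, 71.6% and 72.4% G and C. The Scn2a window held none and was 39.6% G and C, so the probes that fell do not share this feature. A promoter was in the table for 59 of the 91 genes. A GC box stood in 55.9% of these 59 and in 32.4% of all 27457 windows of the same length. TATAAA, sought on both strands, stood in 1 of the 59 (Kcnj1) against 13.1% of all, and the cAMP response element TGACGTCA in none against 1.70% of all. The left part of the RE1 element, TTCAGCACC, stood in 1 (Kcnh6) and the right part, GGACAGCGC, in none, against 0.317% and 0.353% of all windows. The median G and C content was 65.2% for the channel genes and 52.0% for all. Each motif was counted by itself, so bases shared with another motif counted for both. These matches describe letters in a window.

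Among sodium channel alpha subunits, Scn1a read 3.01, 2.95 and 2.74 in Uninjured and 1.14, 2.01 and 1.70 in Injured 4 hr, a change of -1.28 ± 0.41 (limma adjusted p = 0.0378). Scn2a, the alpha subunit of early axons and unmyelinated fibres, read 1.16, 1.83 and 1.33 and then 0.10, 0.36 and 0.12, a change of -1.24 ± 0.36 (limma adjusted p = 0.0227). In both genes every Uninjured array lay above every Injured 4 hr array. As given above, both turned above 0 in the deposited ratios and Scn1a also under equal spread. The beta subunits Scn2b (-0.73 ± 0.41) and Scn3b (-0.24 ± 0.35) did not pass, nor did the sensory neuron alpha subunits Scn10a (-0.10 ± 0.49) and Scn11a (0.45 ± 0.47).

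Scn8a, the main alpha subunit of mature nodes of Ranvier, was the channel gene with a call for a rise, by 2.36 ± 0.66 (limma adjusted p = 0.0213) at the probe 21D05. It rested on a single array. The probe read -4.48 and -0.69 on 2 Uninjured arrays, a spread wider than the change, and -0.15, -0.46 and -0.06 in Injured 4 hr. The second Scn8a probe, 46G04, read -0.79 and -0.82 in Uninjured and -0.19, -0.24 and -0.26 in Injured 4 hr, a change of 0.58 ± 0.50 that did not pass (limma adjusted p = 0.467).

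Of the Kv alpha subunits, Kcnd2, an A-type channel of dendrites, read 1.37, 1.57 and 2.02 in Uninjured and 0.04, 0.32 and 0.26 in Injured 4 hr, a change of -1.45 ± 0.44 (limma adjusted p = 0.0372). The probe 20F07 of Kcnh2, the ERG channel, read 1.30, 1.62 and 2.19 and then 0.57, 0.86 and 0.54. Its change was -1.05 ± 0.33 (limma adjusted p = 0.0372), and the other Kcnh2 probe, 21C04, gave -0.74 ± 0.39 and did not pass. The signs of Kcnd2 and of Kcnh2 at 20F07 turned in the deposited ratios. Kcna1, the axonal Kv channel beside the nodes, had a change of -1.44 ± 0.68 that did not pass (limma adjusted p = 0.161).

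The Kv beta subunits, which bind the inner side of Kv alpha subunits, held 2 of the 9 falls. Kcnab2 read 3.25, 2.85 and 2.23 in Uninjured and 0.59, 0.59 and 0.75 in Injured 4 hr, a change of -2.13 ± 0.69 (limma adjusted p = 0.0428). Kcnab1 read 1.18, 1.57 and 1.76 and then -0.02, 0.32 and 0.28, a change of -1.32 ± 0.39 (limma adjusted p = 0.0299) that turned to 0.21 in the deposited ratios. Kcnab3 (-0.86 ± 0.62) did not pass. For both called genes the groups lay well apart.

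**Figure D2:**
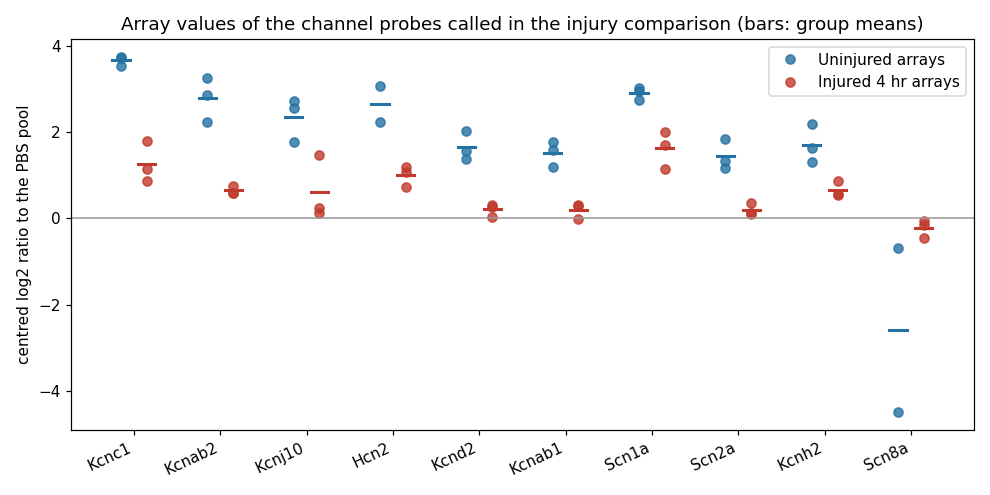
Centred log2 ratio to the PBS pool (vertical axis) on each Uninjured (blue) and Injured 4 hr (red) array for the 10 channel probes called in this comparison; bars are group means. Scn8a differs through 1 Uninjured array at -4.48; in the deposited ratios Scn1a, Scn2a, Kcnd2, Kcnh2 and Kcnab1 turned, and under equal spread Scn1a.

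All 9 that fell were among the 13 channel probes with an Uninjured mean above 1, a mean that is itself subtracted to form the change, so this is a description. The other 4 of these 13 were Kcne3 (-1.16 ± 0.51), Kcna1, the K2P channel Kcnk1 (-1.03 ± 0.36) and the probe 21F09 of the calcium channel alpha1 gene Cacna1e (0.57 ± 0.61), and did not pass. None of the 83 channel probes at or below that mean was called lower, though 32 of them had a change below 0. Over all probes 41.6% of the 1530 with an Uninjured mean above 1 were called lower, and 0.456% of the other 3292. The SD of centred ratios over all probes was 1.39 to 1.47 on the Uninjured arrays and 0.77 to 0.80 on the Injured 4 hr arrays. The part of this spread in the result was not tested. With quantile normalization or equal spread no channel probe passed. In ratios corrected for the mean Injured 4 hr ratio and for source plate, none of the 10 passed. There 3 other probes rose, the KCa gene Kcnma1 (1.11) and the Cacna1e probes 21F09 (1.24) and 21H01 (1.09). These were 3.12% of the channel probes, against 2.43% higher and 4.85% lower over all tested probes. The deposited ratios gave 46 higher and 0 lower (50.1% and 0.29% of all tested), with a median over all probes of 1.47. Centring on the 1624 probes measured on all arrays gave 31 higher and 1 lower (34.9% and 3.4% of all tested), with a median of 0.84.

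**Figure D3:**
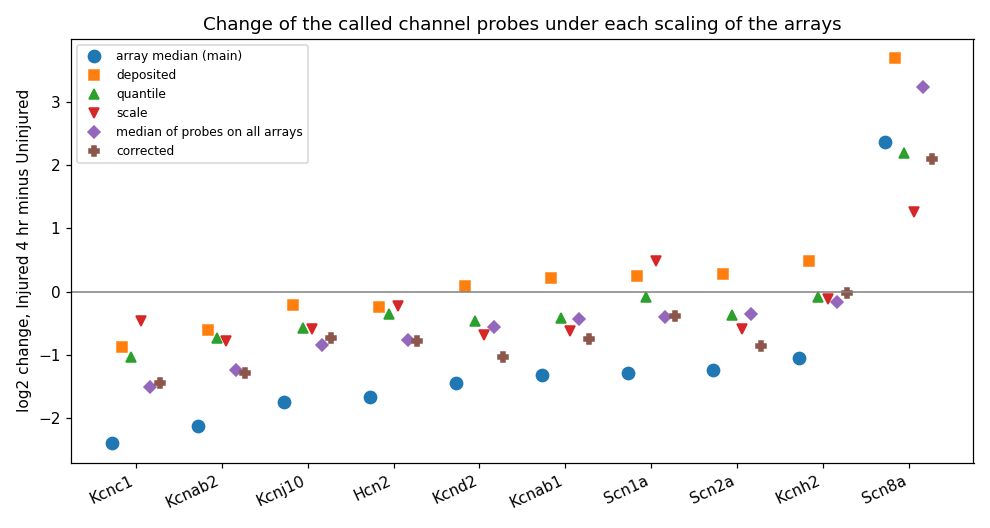
Log2 change from Uninjured to Injured 4 hr (vertical axis) of the 10 called channel probes under the median centring used here and 5 other scalings of the arrays. Kcnc1, Kcnab2, Kcnj10 and Hcn2 stayed below 0 and Scn8a above 0 throughout; Scn1a, Scn2a, Kcnd2, Kcnh2 and Kcnab1 turned in the deposited ratios, and Scn1a under equal spread.

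Calcium channels showed no call in this comparison, and their changes were mostly small. Of the 11 alpha1 probes 9 had a change above 0, against 2312 of all 4822 tested probes. The L-type genes Cacna1c (0.03 ± 0.42) and Cacna1d (0.29 ± 0.34), the N-type Cacna1b (-0.29 ± 0.52) and Cacna1a (0.22 ± 0.40) did not pass, nor did the auxiliary genes Cacna2d1 (0.10 ± 0.46) and Cacnb2 (0.26 ± 0.51). The extremes of the class were Cacna1e at 21H01 (0.95 ± 0.33, limma adjusted p = 0.0615) and Cacnb4 (-0.74 ± 0.43). Among potassium channels, the axonal Kcna2 (-0.44 ± 0.47), Kcnj11 (-0.32 ± 0.34), Kcnma1 (0.16 ± 0.31) and the SK channel Kcnn3 (0.17 ± 0.40) did not pass. Kcns2, a silent Kv subunit, had the largest positive change of the potassium class (1.13 ± 0.61) and Hcn4 that of the Hcn channels (0.82 ± 0.32), and neither passed.

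Single arrays decided many of these calls. Without Injured 4 hr arrays 1, 2 or 3, the comparison called 0 higher and 3 lower, 1 and 3, or 0 and 3. Without Uninjured arrays 1, 2 or 3, it called 0 and 8, 1 and 2, or 0 and 3. Each omission also lowered the count over all tested probes, from 690 to between 355 and 493. Kcnd2, Kcnab2 and Scn1a lost the call under every omission, with changes between -2.40 (Kcnab2) and -1.05 (Scn1a). Kcnh2 and Kcnab1 held only without Uninjured array 1, and Scn2a only without Uninjured array 1 or 3.

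Other genes that work with the channels were described by lists chosen with earlier results known. Of the channel partners, which bind or anchor channels, 8 of 32 tested probes fell and none rose (25%, against 13.5% of all tested probes), but in the deposited ratios 8 were higher and 1 lower, and centred on probes measured on all arrays 7 were higher and 1 lower. They included Snap25 (-3.19 ± 0.50), which ties calcium channels to release sites, and Dlg4 (-1.55 ± 0.32), the PSD-95 scaffold of Kv channels. Of the pumps and exchangers that keep ion gradients, 6 of 28 fell (21.4%; in the deposited ratios 13 were higher and 0 lower, and centred on probes measured on all arrays 7 and 2), among them the sodium pump beta subunits Atp1b2 (-2.20 ± 0.63) and Atp1b1 (-1.996 ± 0.487), the latter at 0.12 under equal spread. Of the other ion channels, 5 of 34 fell (14.7%, near the background of 13.5%; in the deposited ratios 19 were higher and 0 lower, and centred on probes measured on all arrays 12 and 1), among them the mitochondrial pore Vdac1 (-1.97 ± 0.36). In corrected ratios Snap25, Dlg4, Vdac1 and the calcium pump Atp2a2 were still called lower. Medians were -0.62 for partners, -0.04 for pumps and exchangers and 0.25 for other channels. Of the falls, 2 of 8 partners, 1 of 6 pumps and 1 of 5 other channels turned above 0 in the deposited ratios, and 2 in each list under equal spread. Under equal spread no probe of these 3 lists passed. Over all tested probes the deposited ratios called 50.1% higher and 0.29% lower, and centring on probes measured on all arrays 34.9% and 3.4%.

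Cell type markers moved in the same comparison. Of the neuron markers 16 of 28 probes fell, and their mean centred ratio was 2.44 to 2.63 on the Uninjured and 1.04 to 1.17 on the Injured 4 hr arrays. Of the astrocyte markers 9 of 15 fell, from 2.35 to 2.60 on Uninjured arrays to 0.71 to 0.89. Of the oligodendrocyte markers 2 of 13 fell, of the sensory neuron and Schwann cell markers 4 of 11, and of the skeletal muscle markers 3 of 8. None of 9 microglia and macrophage, 11 endothelial and blood or 15 connective tissue probes passed. In the deposited ratios 4 of the 16 neuron falls and 0 of the 9 astrocyte falls turned above 0, and under equal spread 5 and 1. Of the oligodendrocyte, muscle, and sensory neuron and Schwann cell falls, 1 in each list turned in the deposited ratios, and under equal spread 0, 1 and 1. Under equal spread no neuron or astrocyte probe passed, and 1 microglia and macrophage probe was higher. With quantile normalization 3 neuron and 0 astrocyte probes were lower. In corrected ratios 9 neuron, 7 astrocyte, and 4 sensory neuron and Schwann cell probes were lower. Higher in corrected ratios were 2 neuron, 3 microglia and macrophage, and 1 endothelial and blood probes. Snap25 is on both the partner and the neuron list. The part of these shifts in the channel results was not tested. In bulk tissue fewer cells of a type and less RNA per cell cannot be told apart.

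The Injured 4 hr arrays set against their own pool compare like with like. Of the 96 channel probes 6 were higher and 2 lower than the pool, against 21% higher and 1.09% lower over all 4865 tested probes. This test against a pool thus called 22.1% of all probes with PBS-treated cultures on both sides. The higher ones were Cacna1e at 21F09 (2.15 ± 0.38), Kcne3 (2.14 ± 0.36), Scn1a (1.62 ± 0.29), Kcnc1 (1.26 ± 0.33), Hcn2 (1.00 ± 0.26) and Kcnh2 (0.66 ± 0.24). The lower ones were Hcn3 (-1.31 ± 0.35) and the A-type channel Kcnd1 (-1.04 ± 0.29). In the deposited ratios all 6 higher probes turned below 0, and Kcnh2 was also below 0 when centred on probes measured on all arrays. Corrected ratios are residuals from the mean of these same arrays and lie near 0 by construction. Leaving out Injured 4 hr array 1, 2 or 3 gave 4 higher and 1 lower, 5 and 1, or 4 and 0. Kcnc1, Scn1a, Hcn2 and Kcnh2 were called both here and in the injury comparison, and the 2 comparisons share the Injured 4 hr arrays.

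CKIN, MP and Acet were each compared with the Injured 4 hr arrays, so the 3 comparisons share those arrays. In CKIN 2 channel probes were higher and 5 lower of 69 tested (1.47% and 18.5% of all 3736 tested). In the deposited ratios, however, 47 were higher and 0 lower, with quantile normalization 7 and 3, and centred on probes measured on all arrays 8 and 2. Over all tested probes these scalings called 59.7% higher and 0.0268% lower, 4.23% and 12.4%, and 5.78% and 5.33%, in that order. The 2 higher channel probes under median centring were the inward rectifiers Kcnj2, the classical Kir channel, and Kcnj3, the G protein-gated GIRK1 subunit. Kcnj3 at 21B03 read 0.86 and 1.08 on 2 CKIN arrays and -0.63, -0.60 and -0.74 in Injured 4 hr, a change of 1.62 ± 0.39 (limma adjusted p = 0.0129). Kcnj2 read 0.93 and 1.14 on 2 CKIN arrays and -0.38, -0.30 and -0.48 in Injured 4 hr, a change of 1.42 ± 0.42 (limma adjusted p = 0.0292). The arrays did not overlap in either gene, and the missing spot was on CKIN array 3 in both. Of 13 Kir probes 8 were tested, and 6 had a change above 0, against 1253 of all 3736 tested probes. In MP 6 of 10 tested Kir probes were above 0, and in Acet 10 of 13. Kcnj6, the GIRK2 subunit, gave 1.21 ± 0.57 and did not pass.

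The probes lower in CKIN were Cacna1e at 21F09 (-2.03 ± 0.54), Kcne3 (-1.78 ± 0.51), Cacnb4 (-1.61 ± 0.43), Cacna1a (-1.40 ± 0.40) and Kcnc1 (-1.38 ± 0.47). Cacna1a is the P/Q-type channel of synaptic terminals and Cacnb4 a beta subunit. In the deposited ratios Kcne3, Cacnb4, Cacna1a and Kcnc1 turned above 0, at 0.15, 0.32, 0.52 and 0.54. Kcnc1 read -0.16, -1.43 and 1.22 in CKIN, so array 3 overlapped with Injured 4 hr. Against the PBS pool itself, without the Injured 4 hr arrays, Cacna1e at 21F09 (0.12) and Kcne3 (0.37) were above 0. None of the 7 passed in corrected ratios, and with the sparse arrays as a block none of the 6 that had a value. Of all probes 24 and 6 were called in these settings, against 748 in the main fit. Without Injured 4 hr arrays 1, 2 or 3 the calls were 1 higher and 2 lower, 1 and 1, or 1 and 0; without CKIN arrays 1, 2 or 3 they were 0 and 4, 0 and 6, or 2 and 2. Of the 7 called channel probes Kcnj3 held under each omission that left it tested. Each omission left between 205 and 548 calls over all tested probes.

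In MP no channel probe was higher and 3 of 85 were lower (0.0455% and 2.00% of all 4391 tested). In the deposited ratios, however, 60 were higher and 0 lower, with equal spread 2 and 7, and centred on probes measured on all arrays 2 and 2. Over all tested probes these scalings called 72.2% higher and 0% lower, 0.683% and 14%, and 0.251% and 1.59%, in that order. All 3 lower probes under median centring were of calcium channel genes. They were the beta subunit Cacnb2 (-1.90 ± 0.50, limma adjusted p = 0.0487), Cacna1e at 41D01 (-1.73 ± 0.44, limma adjusted p = 0.041) and Cacna1a (-1.59 ± 0.40, limma adjusted p = 0.0376). All 3 turned above 0 in the deposited ratios, at 0.08, 0.26 and 0.40. In corrected ratios none passed, and 46 of all 4391 tested were called. The calls were lost without any 1 Injured 4 hr array and without MP array 1 or 3. Without MP array 2, which was not sparse, 8 were lower. Of all probes 598 were called without that array, against 90 in the main fit. Above 0, the calcium channel beta subunit Cacnb1 (1.27 ± 0.37, limma adjusted p = 0.072) and the K-ATP pore Kcnj11 (1.17 ± 0.35, limma adjusted p = 0.073) had the largest changes and did not pass. The largest negative changes outside the calcium channels, Kcnd2 (-1.46 ± 0.44) and Scn10a (-1.45 ± 0.49), did not pass either.

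In Acet 1 channel probe was higher and none lower of 94 tested (0.106% and 1.20% of all 4734 tested). In the deposited ratios, however, 56 were higher and 0 lower, and with equal spread 3 and 3. Over all tested probes these scalings called 71.2% higher and 0% lower, and 0.591% and 10.1%, in that order. The higher probe under median centring was Cacnb1 at 21F08, a calcium channel beta subunit. This probe read 0.78, 1.72 and 1.46 in Acet and -0.11, -0.46 and -0.30 in Injured 4 hr. The groups did not overlap, and the change was 1.61 ± 0.37 (limma adjusted p = 0.0376). It had the same direction under each scaling and passed in corrected ratios (1.71, limma adjusted p = 0.0412). The call was lost with any 1 of the 6 arrays left out, where the change lay between 1.41 and 1.88. Without Acet array 2, 3 other channel probes were lower, and 122 of all probes were called, against 62 in the main fit. The same probe read 0.18, 1.77 and 0.97 in MP and 0.64, 0.42 and 0.07 in CKIN. At an unadjusted limma p under 0.05, 14 of the 94 channel probes in Acet differed, against 635 of all 4734 tested. The largest negative changes, Cacnb2 (-1.65 ± 0.51), Cacna1e at 41D01 (-1.60 ± 0.44) and Kcnc4 (-1.50 ± 0.49), did not pass.

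None of the channel probes passed between the treatments whose arrays carried a PBS pool. For CKIN against MP 65 were tested (0% of all probes called by limma). For CKIN against Acet 69 were tested (0.160%), and for MP against Acet 84 (0.0228%). At an unadjusted limma p under 0.05, 8, 7 and 4 channel probes differed, in that order. Over all tested probes 552 of 3633, 654 of 3750 and 275 of 4379 did. A p above the threshold does not show that the treatments act alike.

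Indo and NS398 were tested against their own vehicle pools, so each pool is a single control whose spread lies outside the test. A test of this kind on the Injured 4 hr arrays called 22.1% of all probes, against 13.3% in Indo and 22% in NS398. Of the channel probes 8.33%, 16.1% and 18.2% were called, in that order. In Indo 10 of 62 channel probes were lower than the ethanol pool and none higher (10.7% and 2.60% of all 3803 tested). They were Cacnb2 (-2.07 ± 0.36), Cacnb4 (-2.07 ± 0.31), the vascular K-ATP pore Kcnj8 (-1.92 ± 0.42), the pacemaker channel Hcn3 (-1.88 ± 0.34), the fast Kv channel Kcnc4 (-1.78 ± 0.35), Cacna1e at 41D01 (-1.75 ± 0.31), the Kv4 partner Kcnip1 (-1.33 ± 0.23), Cacna1a (-1.31 ± 0.28), the atypical sodium channel Scn7a (-1.22 ± 0.35) and the K2P channel Kcnk10 (-1.08 ± 0.27). All 10 were below 0 under each scaling. Hcn3 was also called lower than the pool on the untreated Injured 4 hr arrays, at -1.31, as given above. Kcnj8 was measured on 2 arrays that disagreed, at -3.16 and -0.69, and Scn7a on 2, at -2.04 and -0.40. In corrected ratios 7 of the 10 were called and Kcnj10 (-0.81) was called as well, and in deposited ratios 7 were called. Quantile normalization gave 4 higher and 9 lower (12.5% and 11.1% of all tested). The largest change above 0 was that of the Kv4 partner Kcnip2 (1.36 ± 0.56), which did not pass. Leaving out an Indo array left 8 or 9 calls; Kcnk10 (-1.40 to -0.89) was lost without Indo array 1 or 3.

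In NS398 12 of 88 channel probes were lower than the DMSO pool and 4 higher (11.3% and 10.7% of all 4486 tested). Cacna1a was lower by the widest margin for its error, at -1.49, -2.31 and -3.01 on the 3 arrays, a mean of -2.27 ± 0.28 (limma adjusted p = 1.64e-05). The calcium channel genes Cacnb2 (-1.81 ± 0.36), Cacna1e at 41D01 (-1.65 ± 0.31) and the N-type Cacna1b (-1.43 ± 0.37) were lower too. Lower as well were Hcn3 (-1.30 ± 0.34), Hcn4 (-0.79 ± 0.23), Kcnc2 (-1.07 ± 0.37), Kcnc4 (-1.06 ± 0.35), Kcnip1 (-0.85 ± 0.23), the SK channel Kcnn1 (-1.82 ± 0.42), the muscle sodium channel Scn4a (-2.84 ± 0.73) and Scn8a at 46G04 (-2.60 ± 0.39). Some rested on 2 arrays that disagreed: Scn4a read -0.03 and -5.65, Kcnn1 -0.69 and -2.95, and Scn8a -1.96 and -3.24. The other Scn8a probe, 21D05, gave -0.46 ± 0.42 and did not pass. Hcn3 was also called lower than the pool on the untreated Injured 4 hr arrays, at -1.31, as given above.

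The 4 probes higher in NS398 were Cacna1e at 21F09 (1.52 ± 0.38), Kcne3 (1.33 ± 0.36), Scn7a (1.00 ± 0.29) and the beta subunit Cacnb3 (0.77 ± 0.27); Cacnb3 turned to -0.13 in the deposited ratios. Scn7a read 1.07, 1.63 and 0.30. Cacna1e at 21F09 and Kcne3 were also higher than the pool on the untreated Injured 4 hr arrays, as given above, and neither passed in corrected ratios. In deposited ratios 47 channel probes were lower and none higher (42.9% and 1.18% of all tested), with a median of -0.98 over all probes. Centring on probes measured on all arrays gave 2 higher and 22 lower (7.16% and 21.9% of all tested). Leaving out NS398 array 1, 2 or 3 gave 2 higher and 8 lower, 1 and 7, or 1 and 10. The lower calls of Cacna1a, Cacna1e at 41D01 and Cacnb2 held under each of these omissions, and in corrected ratios.

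**Figure D4:**
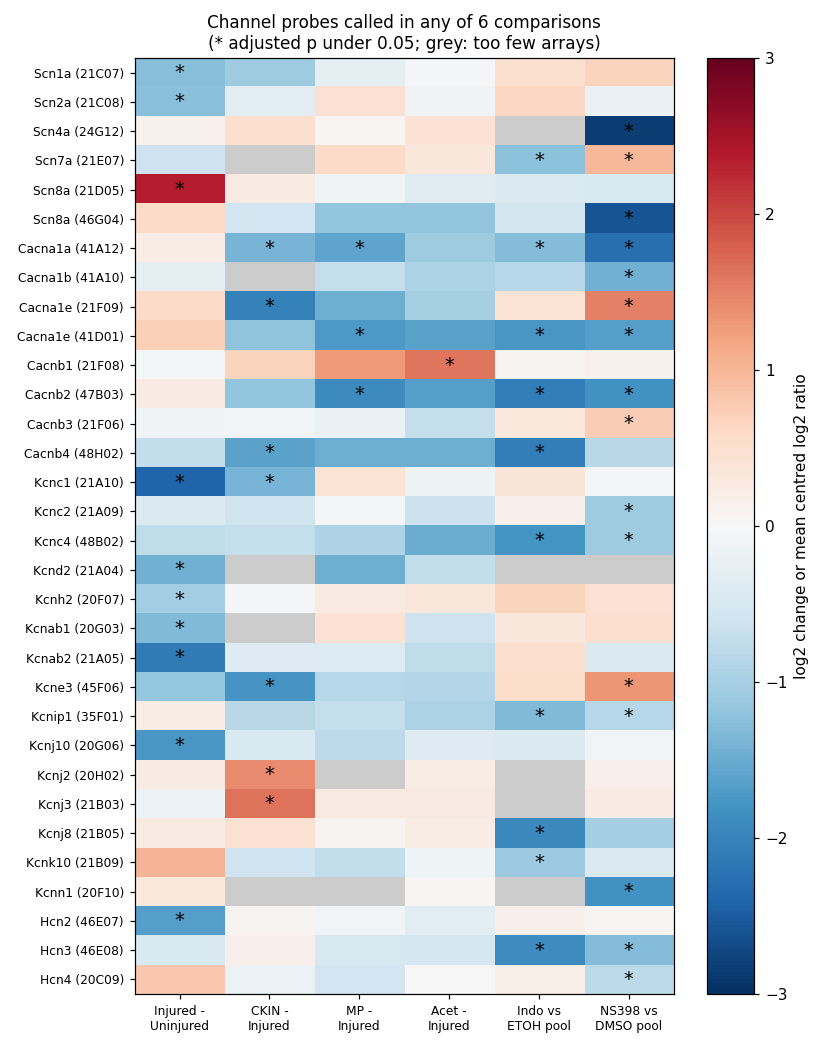
Log2 change (red above 0, blue below 0) of the 32 channel probes called in at least 1 of 6 comparisons; columns are comparisons, stars mark calls and grey marks too few arrays. Scn7a was lower in Indo and higher in NS398, and the probes of Cacna1e went different ways; injury and CKIN, MP or Acet changes of Scn1a, Scn2a, Kcnd2, Kcnh2, Kcnab1, Kcnc1, Cacna1a, Cacnb4, Kcne3, Cacna1e at 41D01 and Cacnb2 turned in the deposited ratios, with NS398 for Cacnb3 and, under equal spread, injury for Scn1a.

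Of 96 channel probes 7 were called lower in at least 2 of the 5 treatment comparisons (7.29%, against 6.23% of all 4911 probes with a value): Cacna1a in 4, Cacna1e at 41D01 and Cacnb2 in 3, and Cacnb4, Hcn3, Kcnc4 and Kcnip1 in 2. The share lay near the background, and 4 of the 7 were calcium channel probes. Of the calcium channel probes tested, 21.4% were lower in CKIN (18.5% of all), 20% in MP (2.00%), 0 of 16 in Acet (1.20%), 30.8% in Indo (10.7%) and 25% in NS398 (11.3%), each from 3 or 4 probes where any passed. All 7 were below 0 on each of the 15 treated arrays after centring. Kcnip1, Cacna1e at 41D01, Hcn3 and Cacnb2 were also below 0 on every Injured 4 hr and Uninjured array that measured them. Cacna1a was below 0 on every Uninjured array that measured it. In Uninjured, Cacna1e at 41D01 ran from -1.34 to -0.88, which overlaps with its treated range. Cacna1a ran from -3.01 to -0.80 on treated arrays, with a median of -1.47, and from -0.44 to 0.22 in Injured 4 hr. Cacnb2 ran from -3.11 to -0.89, with a median of -1.96, and from -0.75 to -0.08 in Injured 4 hr. Cacna1e at 41D01 ran from -3.03 to -1.14, with a median of -1.87, and from -0.70 to -0.0043 in Injured 4 hr. For these 3 probes and Kcnip1 all 15 treated arrays lay below all Injured 4 hr arrays; for Cacnb4 14 did, for Kcnc4 12 and for Hcn3 4. Of these 15 arrays the 3 Indo and 3 NS398 arrays are ratios to other pools than the Injured 4 hr arrays, so their levels are set side by side and not compared. The probes were picked by these calls, so the counts are a description. The same counts of arrays were not made for the 306 probes of all that met this rule, so no share stands beside them. The MP and CKIN changes of Cacna1a, Cacna1e at 41D01, Cacnb2 and Cacnb4 that passed turned in the deposited ratios, as given above.

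Of these 7 probes 6 came from the source plates 41, 46, 47 and 48, as read from the probe names, while 68 of all 96 channel probes came from plates 20 and 21. The other probes of those 4 plates were also often lower: 29.9% in Indo, 24.6% in NS398, 26.0% in CKIN and 6.34% in MP. Of the 10 lower channel probes in Indo 6 lay on these plates, and of the 12 in NS398 7. The median of the other probes on plate 41 was -0.48 in Indo and -0.37 in NS398, nearer 0 than the channel probes named. In corrected ratios, where the loess on the mean Injured 4 hr ratio and the plate centring change together, Cacnb2 and Cacna1e at 41D01 were still called lower in both Indo (-1.31 and -0.94) and NS398 (-1.37 and -0.94), Cacna1a in NS398 (-1.63) and Cacnb4 in Indo (-1.61). Cacna1a in Indo (-0.55) was not. Plate centring alone was not run, and the part of the plate in these values was not tested.

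**Figure D5:**
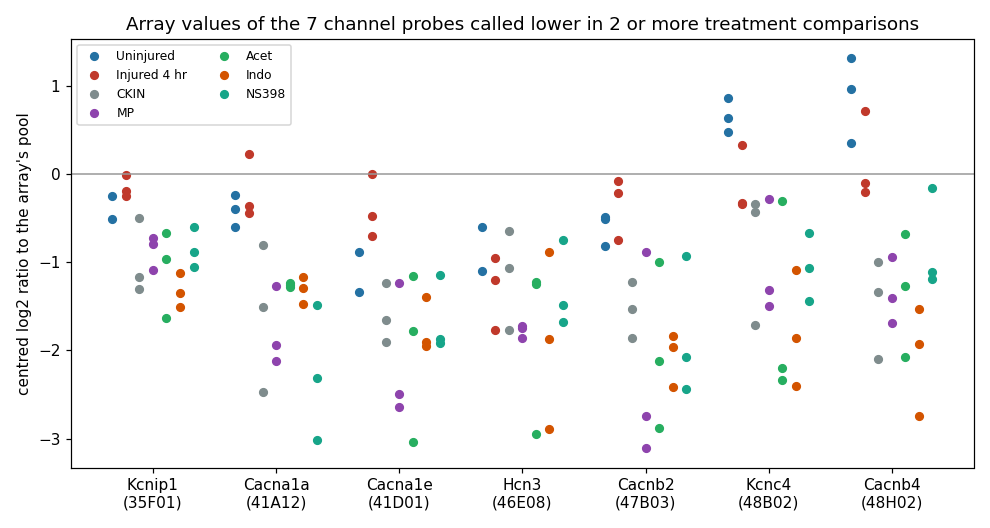
Centred log2 ratio to the pool of each array (vertical axis) on all 21 arrays for the 7 channel probes called lower in 2 or more treatment comparisons, coloured by group. All 15 treated arrays lie below 0 for each probe, and so do the Injured 4 hr and Uninjured arrays of Kcnip1, Cacna1e, Hcn3 and Cacnb2. Injured 4 hr arrays of Cacna1a lie between -0.44 and 0.22. CKIN or MP changes of Cacna1a, Cacna1e, Cacnb2 and Cacnb4 turned in the deposited ratios.

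Several genes had more than 1 probe, and they did not always go together. The 3 Cacna1e probes, for the R-type calcium channel, read in NS398 1.52 ± 0.38 at 21F09, 0.14 ± 0.22 at 21H01 and -1.65 ± 0.31 at 41D01. On the Injured 4 hr arrays 21F09 read 2.14, 2.13 and 2.18 and 41D01 read -0.70, -0.47 and -0.0043. A single direction for Cacna1e can therefore not be given. The Kcnj3 probe 20H05 had no value on any CKIN array, so the higher CKIN value of Kcnj3 rests on 21B03 alone. The 2 Scn8a probes and the 2 Kcnh2 probes differed in their calls, as given above.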

How the data were processed

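The authors deposited log ratios of sample over reference pool for 21 arrays, taken as log2, with the direction read from the titles. They are not normalized between arrays. The base was read from values of the treated arrays, where 4.73% to 7.14% equalled log2 of a small whole-number ratio. That share was 0.0457% to 0.229% on Uninjured and 0.570% to 0.717% on Injured 4 hr arrays, where base 2 is assumed. Why the shares differ between these arrays was not tested. For scanner, dyes, background correction and filters, the sources used here give nothing. Of 5376 rows 4962 had a value, with 3092 to 4916 probes measured per array, and a blank is a missing spot. The 52 Gapdh spots were averaged. Array number and missing spots limit the precision, and the depth of an array is not a count. Genes were named from the platform annotation, where 4423 probes had 1 symbol and 2 had several; 4375 were updated by identifier. No 2 arrays were identical among 210 pairs.

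Each array was centred on its median and all 21 arrays were fitted together in limma 3.58.1 (R 4.3.3), with 2-sided tests and Benjamini-Hochberg adjustment over all tested probes of a comparison. The script was tested on simulated data. Corrected ratios are residuals of a loess (span 0.4) on the mean Injured 4 hr ratio, then centred within source plates of at least 20 probes. Alternatives were other scalings, filters, blocks, the compared groups alone, and leaving out each array. Same-numbered arrays of MP and Acet had deviations with correlations of 0.34, 0.45 and 0.0092. In each other comparison between groups not every same-numbered pair was above 0, and numbers were not taken as pairs in the main fits.

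The members and lists (channel partners, ion pumps and exchangers, other ion channels, and markers of neurons, astrocytes, oligodendrocytes, microglia and macrophages, endothelium and blood, connective tissue, skeletal muscle, sensory neurons and Schwann cells) were chosen with earlier results of these data known. Named are members called in any comparison, the extremes of each class, genes with several probes, and a panel of 36 genes, of which 26 were on the array, shown where they bear on a comparison. Promoters are from RefSeq (GRCr8).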

Additional observations from a re-analysis of the deposited data

How the results depend on the processing

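Counts of called channel probes (higher and lower together) depended mainly on how arrays were scaled. Brackets hold the count over all tested probes in the same setting. The injury comparison called 10 of 96 probes (690 of 4822). It called 46 (2430) in deposited ratios, 0 (20) with quantile normalization and 0 (33) with equal spread. It called 32 (1847) when centred on probes measured on all arrays, 3 (351) in corrected ratios and 22 (1824) with the compared groups alone. For CKIN, with 7 of 69 (748 of 3736), they were 47 (2232) in deposited ratios, 0 (24) in corrected ratios and 0 (6) with the sparse arrays as a block. For MP, with 3 of 85 (90 of 4391), they were 60 (3170) in deposited ratios, 1 (35) with quantile normalization and 9 (645) with equal spread. MP gave 0 (46) in corrected ratios, 0 (24) with the compared groups alone and 21 (1373) against the PBS pool. For Acet, with 1 of 94 (62 of 4734), they were 56 (3371) in deposited ratios and 6 (507) with equal spread. Acet gave 3 (90) when centred on probes measured on all arrays, 2 (131) with the compared groups alone and 20 (1443) against the PBS pool. For NS398, with 16 of 88 (986 of 4486), they were 47 (1977) in deposited ratios and 4 (125) with the compared groups alone. For Injured 4 hr against its pool, with 8 of 96 (1073 of 4865), they were 92 (4408) in deposited ratios and 17 (1539) with quantile normalization. That comparison gave 16 (1498) with equal spread and 59 (2972) when centred on probes measured on all arrays. It gave 0 (0) in corrected ratios and 29 (2049) with the group alone. CKIN against Acet, with 0 of 69 (6 of 3750), gave 1 (102) with quantile normalization and 3 (105) when centred on probes measured on all arrays. With the replicate block, the pairing of numbers gave 4 calls (120) in Acet, 9 (727) in injury and 9 (786) in CKIN. It moved no other count of channel probes by over 1.5 times. Leaving out 1 array gave 3 to 8 calls (355 to 493) for injury, 1 to 6 (205 to 548) for CKIN and 0 to 8 (3 to 598) for MP. It gave 0 to 3 (0 to 122) for Acet, 8 to 9 (299 to 380) for Indo and 8 to 11 (481 to 962) for NS398. Injured 4 hr against its pool then had 4 to 6 (784 to 846) and CKIN against MP 0 to 1 (0 to 8).

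Directions turned in deposited ratios for injury in Kcnh2 (0.48), Kcnab1 (0.21), Kcnd2 (0.081), Scn1a (0.24) and Scn2a (0.28), and with equal spread in Scn1a (0.48). For CKIN they turned in Kcnc1 (0.54), Cacna1a (0.52), Kcne3 (0.15) and Cacnb4 (0.32), and against the PBS pool in Cacna1e at 21F09 (0.12) and Kcne3 (0.37). For MP they turned in Cacna1a (0.40), Cacna1e at 41D01 (0.26) and Cacnb2 (0.085), and for NS398 in Cacnb3 (-0.13). For Injured 4 hr against its pool they turned in Kcnh2 (-1.55), Kcnc1 (-0.94), Scn1a (-0.58), Cacna1e at 21F09 (-0.053), Kcne3 (-0.059) and Hcn2 (-1.20). Centring on probes measured on all arrays turned Kcnh2 (-0.034), and corrected ratios turned Kcnh2 (-0.0047) and Hcn2 (-0.0058). Deposited ratios, and those centred on probes measured on all arrays, differ from the main ones by a constant of each array, the same for every probe. Turns under these scalings follow from those constants and are not particular to a gene. Why the array medians differ was not tested. Corrected ratios set the Injured 4 hr mean near 0 by construction, and the cause of the remaining turns was not tested.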
